A study of Enchytraeus albidus with 21 samples.

Results

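The array carried 171 contig probes among its 1035 worm probes: all probes, control spots excepted, whose identifier begins with Contig. A contig is a transcript sequence put together from several overlapping clone reads, in contrast to the other 864 probes, whose identifiers name a plate position of a clone. The contig numbers run from 1 to 177. Each contig sat in 14 spots on an array, of which at least 8 were usable on any array. The files give no gene name and no sequence for any contig, so each contig goes by its identifier here, with no statement on what it encodes.

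The animals were white potworms, Enchytraeus albidus, segmented worms of soil and decaying plant matter that are used to test the toxicity of soils. Enchytraeids meet soil water through their soft skin and feed on litter and microbes. A solvent such as acetone is often used to bring poorly soluble test chemicals into soil, and a solvent control then stands beside the water control. Replicates were separate sets of worms. Each was RNA from the whole bodies of 10 mature worms, recognised by their well developed clitellum, a glandular ring. In experiment 1, worms were taken from culture at day 0 (3 replicates), or held for 2 days in control soil (the water control, 3) or in acetone-spiked soil (3). In experiment 2, worms were held in control soil for 2, 4 or 8 days (4 replicates each). All soil groups of both experiments were in vessels of 25 g soil at 20 °C under a day of 16 h light and 8 h darkness. In whole-body RNA, fewer cells of a type and less RNA per cell cannot be told apart.

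Levels are log2 processed signals from which each array's own 75th percentile was subtracted; a contig at 0 is as bright as that percentile. That percentile ranged from 868 to 3720 signal units, and its 3 lowest values were those of 8-day replicate 3 and of 2-day replicates 1 and 3 in experiment 2. Between 93 and 164 contigs were well above background on an array, the fewest on culture replicate 3. Experiment 2's 2-day arrays 2 and 4 were nearly identical over the contigs: their differences had a median absolute deviation of 0.0918, against 0.286 for the next closest of 210 pairs of arrays. The scatter of spots alone would give 0.0317. Their mean was used as 1 sample, so the 2-day group has 3 samples and the series 20. Precision is limited by the few arrays, 3 or 4, in a group.

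Most contigs were detected throughout. Of the 171, 93 (54.4%) were well above background on all 21 arrays, against 52.3% of all probes, and 52 more on 18 to 20 arrays. A further 23 contigs were above background on 1 to 17 arrays. Contig94, Contig138 and Contig152 were above background on none (1.75% of contigs, against 4.64% of all probes). Contig41, Contig51, Contig109, Contig136 and Contig143 were above background on all arrays of some group and on no array of another. At the bright end, 19 contigs were saturated on at least 1 array. Contig63, Contig66, Contig73, Contig89 and Contig120 were saturated on all 19 arrays read with the older scanner model, so their levels there are bounds. In each of the 6 comparisons below, 6 to 9 tested contigs were saturated on every array of a group, and 1 of these was called, Contig60. On the 2 arrays read with the newer model, 4-day replicates 1 and 2, no contig was saturated.

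Among the 93 contigs detected on all arrays, the range of the 6 group means had a median of 1.21 log2 units. It exceeded 1 unit for 55 of them and 2 units for 13, and was under 0.5 for 7. The steadiest group means were those of Contig32, with a range of 0.22, and Contig24, with a range of 0.30. Contig119 and Contig19 had the widest, 6.87 and 6.01. The highest group mean was that of the 2-day worms of experiment 2 for 48 of the 93 contigs, and the lowest was that of the acetone worms for 36. The shares over all probes are not given here, so these counts say nothing on contigs in particular. Dim contigs lay higher on the 2-day arrays with 75th percentiles of 868 and 1150 units. The median of all tested probes differed by −0.31 log2 units, acetone minus water control, and by 0.07 after median centring. Whether the scaling had a part in these counts was not tested.

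Replicates of experiment 1 lay close together. The median SD between samples, over the 153 contigs tested there, was 0.328 log2 units for culture worms, 0.192 for water controls and 0.341 for acetone worms (n = 3 each). The other probes gave 0.278, 0.199 and 0.373. In experiment 2 the median SD over 152 contigs was 0.666 at 2 days (n = 3), 0.818 at 4 days and 0.844 at 8 days (n = 4 each), against 0.563, 0.669 and 0.482 for the other probes. The median contig thus spread more than the median of the other probes at all 3 times, a description with no test. The 2-day value fell to 0.230 when the averaged pair was left out, and the 8-day value to 0.428 without 8-day replicate 3. The other probes then gave 0.214 and 0.358, so the gap to them narrowed. An SD over 1 unit was seen for 0, 7 and 1 contigs in culture, water and acetone, and for 49, 54 and 63 at 2, 4 and 8 days. The latter were 32.2%, 35.5% and 41.4% of contigs, against 19.1%, 24.4% and 24.0% of all probes. In culture, water and acetone all probes gave 1.36%, 3.74% and 2.94%. The 2-day count was 0 without the averaged pair, and the 8-day count was 18 (11.8%) without 8-day replicate 3. All probes then gave 2.68% and 8.61%.

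**Figure D1:**
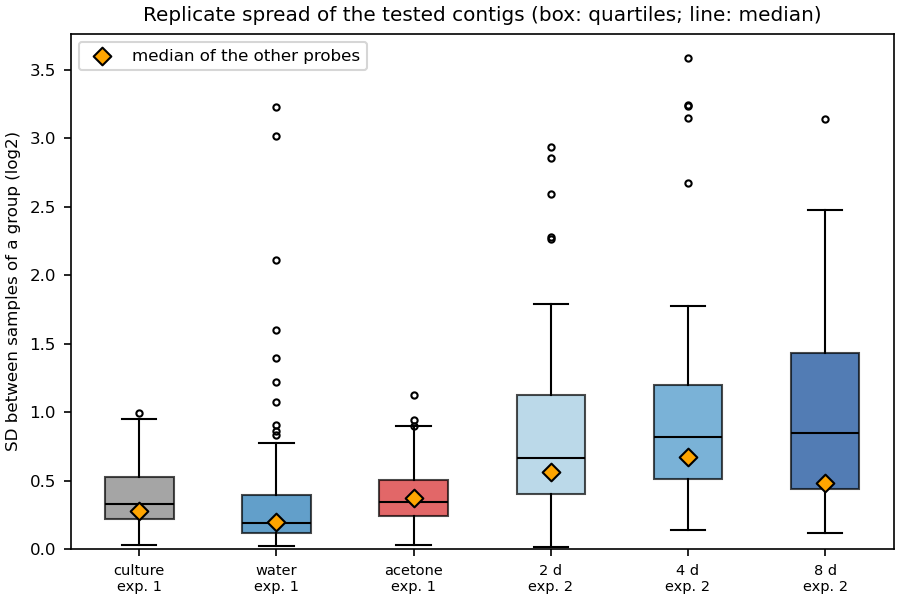
Each box gives the quartiles of the SD between samples of a group (log2 units, y axis) over the tested contigs, with the median as a line, for the 6 groups on the x axis; diamonds give the median of the other probes. Medians lie at 0.192 to 0.341 in experiment 1 and at 0.666 to 0.844 in experiment 2.

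Of the 93 contigs detected on all arrays, 83 (89.2%) had a larger SD within the groups of experiment 2 than within those of experiment 1, with a median ratio of 2.00. All 541 probes detected on all arrays gave 92.4% and 1.98. Among contigs above background on all arrays of an experiment, the smallest SDs within groups belonged to Contig175 and Contig68 in experiment 1 and to Contig82 and Contig76 in experiment 2. Contig175 lay at 3.81, 3.75 and 3.79 in culture, 4.14, 4.07 and 4.01 in the water controls and 3.91, 3.86 and 3.92 with acetone. Its 3 groups did not overlap in experiment 1, but it was picked for its small spread and was called in neither comparison there. In experiment 2, Contig82 lay between 1.70 and 1.79 at 2 days, between 1.17 and 1.61 at 4 days and between 1.24 and 1.70 at 8 days. Among the same contigs, Contig119 and Contig19 had the largest SDs in experiment 1, 1.88 and 1.00, and Contig129 and Contig119 in experiment 2, 3.04 and 2.20. Contig8, Contig167 and Contig135, each above background on 8 of the 9 arrays of experiment 1, had SDs of 1.77, 1.32 and 1.17 there.

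Dim contigs lay higher on the 3 dimmest arrays than on the other 18. The 93 contigs detected on all arrays were split at their median level into a dimmer and a brighter part. The median of the dimmer part on the 3 dimmest arrays (2-day replicates 1 and 3, 8-day replicate 3) lay at −1.17, −0.97 and −0.77. On the other 18 arrays it lay between −3.38 and −2.05, with no steady relation to brightness. It was −2.72 on 4-day replicate 3 (1300 units) and −2.05 on 8-day replicate 1 (2260 units). The brighter part of the list lay between 3.1 and 4.0 on all 21 arrays. Over all contigs the median level was −2.16, −2.07 and −1.59 on those 3 arrays and between −4.21 and −2.85 elsewhere.

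**Figure D2:**
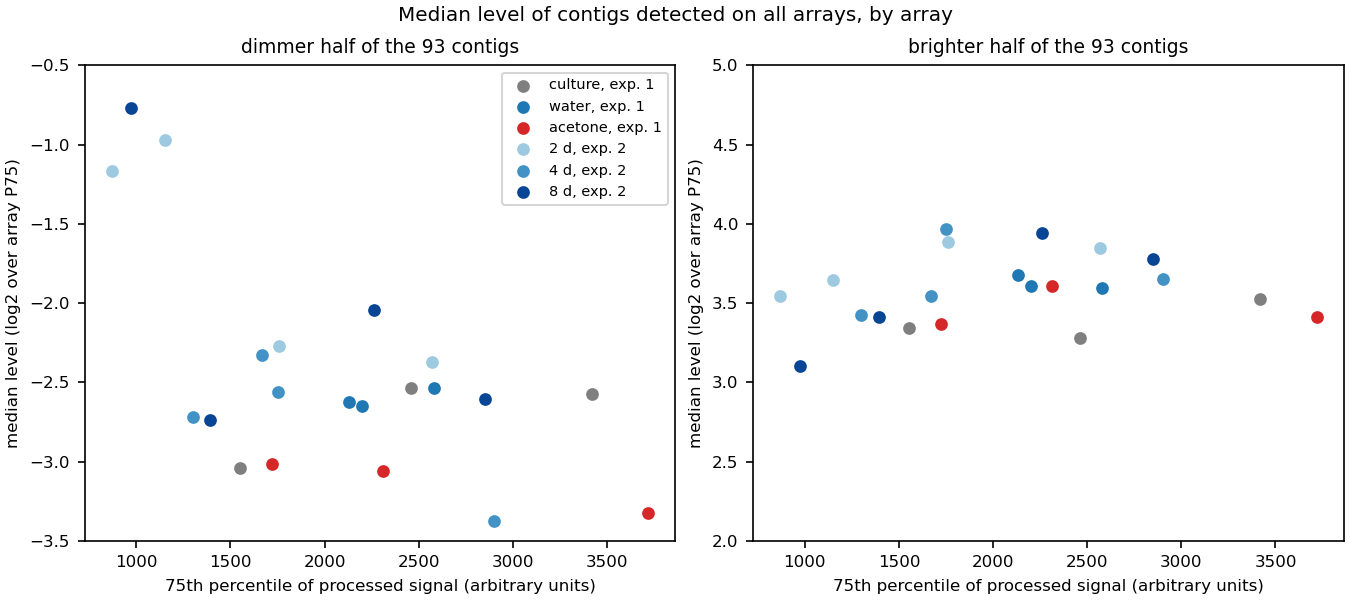
Median level (log2 over the array's 75th percentile) of the dimmer and the brighter part of the 93 contigs detected on all arrays, against the 75th percentile of processed signal of each array (arbitrary units); each point is 1 array, coloured by group. In the dimmer part the 3 arrays with the lowest percentile (868 to 1150 units) sit at −1.17 to −0.77, above the other arrays.

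The move from culture to control soil changed no contig past the threshold. Of 153 contigs tested, limma called 0 (883 probes tested, 0.113% called), with a smallest adjusted p of 0.113, and 14 contigs (9.15%) had an unadjusted p under 0.05, against 17.4% of all probes. The median contig differed by 0.13 log2 units and the median probe by 0.12, both soil minus culture; centring arrays on their median instead gave −0.09 and −0.10. Contig123 had the smallest unadjusted p among contigs higher in soil. It lay at −3.68, −3.46 and −3.52 in soil and at −4.29, −4.45 and −4.74 in culture, a difference of 0.94 ± 0.22 (SE). Contig112, the first among those lower in soil, lay at −1.99, −1.63 and −2.11 in soil and at −0.63, −1.08 and −1.12 in culture. Its difference was −0.97 ± 0.23 (SE). Neither contig's groups overlapped, and both had an adjusted p of 0.113. The groups did not overlap for 36 contigs (23.5%), against 32.6% of all probes.

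Acetone gave the largest set of contig changes. After 2 days in acetone-spiked soil, 9 contigs were higher and 8 lower than in the water controls, 17 of 153 tested (11.1%), against 6.23% of all 883 probes. By direction, 2.15% of all probes were higher and 4.08% lower. The 9 higher contigs were Contig8, Contig19, Contig119, Contig121, Contig126, Contig135, Contig143, Contig167 and Contig168, with a median 17.2-fold difference. The 8 lower contigs were Contig43, Contig48, Contig62, Contig113, Contig118, Contig129, Contig146 and Contig166, with a median 2.60-fold difference and a range of 1.92-fold to 5.21-fold. None of the 17 had overlapping groups. Contig143 and Contig48 entered the test only through the group where they were high, so their calls are not separate support. Over all contigs the groups did not overlap for 9 that were higher and 55 that were lower, 41.8% in all. Over all probes 37.4% did not overlap, 3.85% higher and 33.5% lower.

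The split between rises and falls moved with the scaling. The median of all tested probes was 0.31 log2 units lower with acetone (contigs −0.34). After quantile normalization this shift was −0.07 for both, and median centring gave 0.07 for all probes and 0.05 for contigs. Under either of these the same 9 contigs were called higher, and 1 of the 8 falls, Contig129, was called lower. With the authors' deposited log2 values 2 were called higher and 1, Contig129, lower.

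Contig8 rose most. It lay at 2.93, 2.96 and 2.79 with acetone and at 0.01, −4.73 and −5.6 in the water controls. The acetone samples agree within 0.2 log2 units while 1 water control stands over 4 units above the other 2. The difference was 6.33 ± 1.16 (SE), an 80.7-fold rise (adjusted p = 0.0194). Contig119 followed with 4.38, 4.2 and 4.15 against 1.90, −3.04 and −4.18. Its difference of 6.02 ± 1.23 (SE) was a 64.8-fold rise (adjusted p = 0.0291), and its spots were saturated on acetone replicate 3. For both contigs water control replicate 1 was the high one.

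Contig135 rose by 4.47 ± 0.77 (SE) and Contig167 by 4.70 ± 0.87 (SE). Contig167 lay at 1.11, −0.58 and 0.27 with acetone and at −2.20, −4.69 and −6.41 in the water controls, again with replicate 1 highest. Contig19 rose 17.2-fold and Contig126 8.35-fold. A pair of the rises were in contigs already above the 75th percentile in water controls. Contig121 lay at 4.35, 4.67 and 4.03 with acetone against 2.93, 3.18 and 3.04, a 2.46-fold rise. Contig168 rose 2.81-fold, from 1.58, 2.19 and 1.82 to 3.25, 3.75 and 3.06. Contig143 was above background on all 3 acetone arrays and on none of the water controls, so it entered the test only through the former. It was at least 3.47-fold higher (adjusted p = 0.0365).

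Contig129 fell most. It lay at −4.45, −3.38 and −3.72 with acetone and at −1.78, −1.46 and −1.15 in the water controls, a fall of 2.38 ± 0.29 (SE), 5.21-fold (adjusted p = 0.0121). Contig118, the next, lay at −6.79, −6.98 and −7.51 against −6.23, −4.70 and −5.66. It fell by 1.56 ± 0.37 (SE; adjusted p = 0.040) and missed the threshold in 14 of 18 alternatives, with adjusted p up to 0.352.

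**Figure D3:**
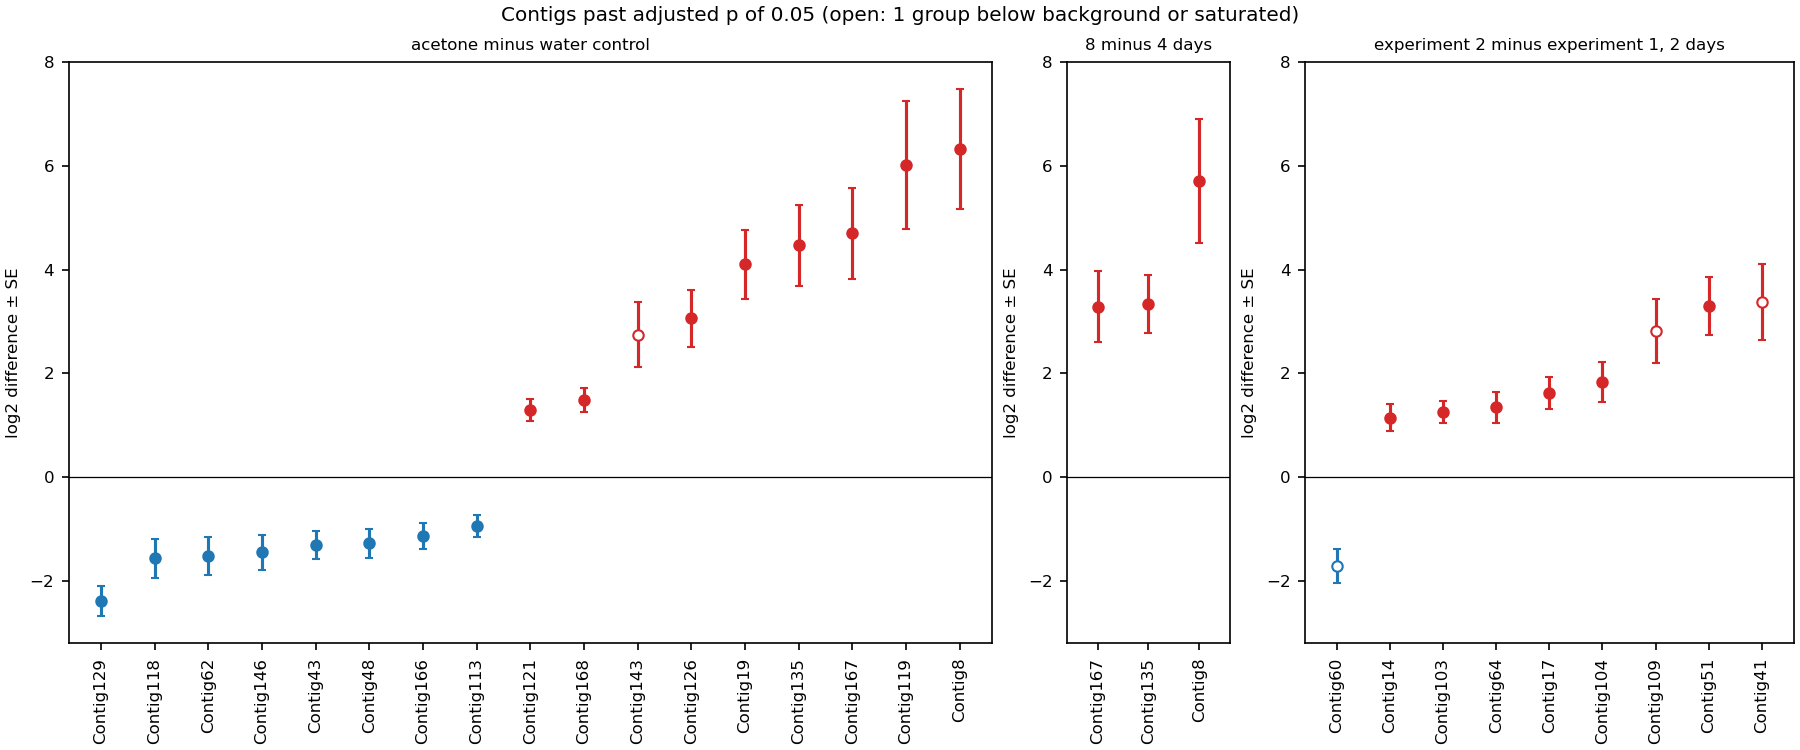
Log2 difference ± SE (y axis) of each contig past an adjusted p of 0.05 (x axis) in 3 comparisons: acetone minus water control, 8 minus 4 days, and experiment 2 minus experiment 1 at 2 days. Red points are higher and blue points lower; open points have 1 group below background or saturated on every array, so their true difference may be larger. With acetone the rises reach 6.33 and the falls −2.38.

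The number of acetone calls rested on few samples. Without acetone replicate 2 it fell from 17 to 1, without water control replicate 2 to 3 and without water control replicate 3 to 5. It stayed at 16 without water control replicate 1. Leaving out acetone replicates 1 and 3 in turn gave 9 and 10, and leaving out culture replicate 2 gave 10. No scan day and no slide held both acetone and water control arrays, so acetone cannot be told apart from day or slide. A random block cannot separate them either. With scan day as a random block, whose estimated correlation was −0.211, 43 passed, 9 of them higher. These are counts of contigs alone, without the share over all probes in each fit. Contig129 kept its call in all 19 alternatives. Contig8 lost it in 5 of 18, with adjusted p up to 0.091, and Contig119 in 7 of 19, up to 0.107.

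Most contigs that rose with acetone also varied among the water controls. Of 7 contigs with an SD over 1 among the water controls, 6 were among the 9 (the other was Contig78, with an SD of 1.22). The median level of the 9 was −0.61, −3.04 and −4.18 in water controls 1, 2 and 3, 1.78, 2.96 and 2.26 with acetone, and −3.46, −3.06 and −3.87 in culture. In experiment 2 it was −1.17, 0.70, −0.72 and 0.68 on the 2-day arrays, −3.25, −3.81, 0.57 and −3.93 at 4 days, and 0.41, 1.55, 0.27 and 0.24 at 8 days. Water control replicate 1 and 4-day replicate 3 thus stood above the other samples of their groups. The 4 arrays at 8 days lay above all culture and water control samples, in worms never given acetone. So did 2-day replicates 2 and 4 and 4-day replicate 3. The 9 were called for being higher than the water controls, and levels set across the 2 experiments carry their difference as well.

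**Figure D4:**
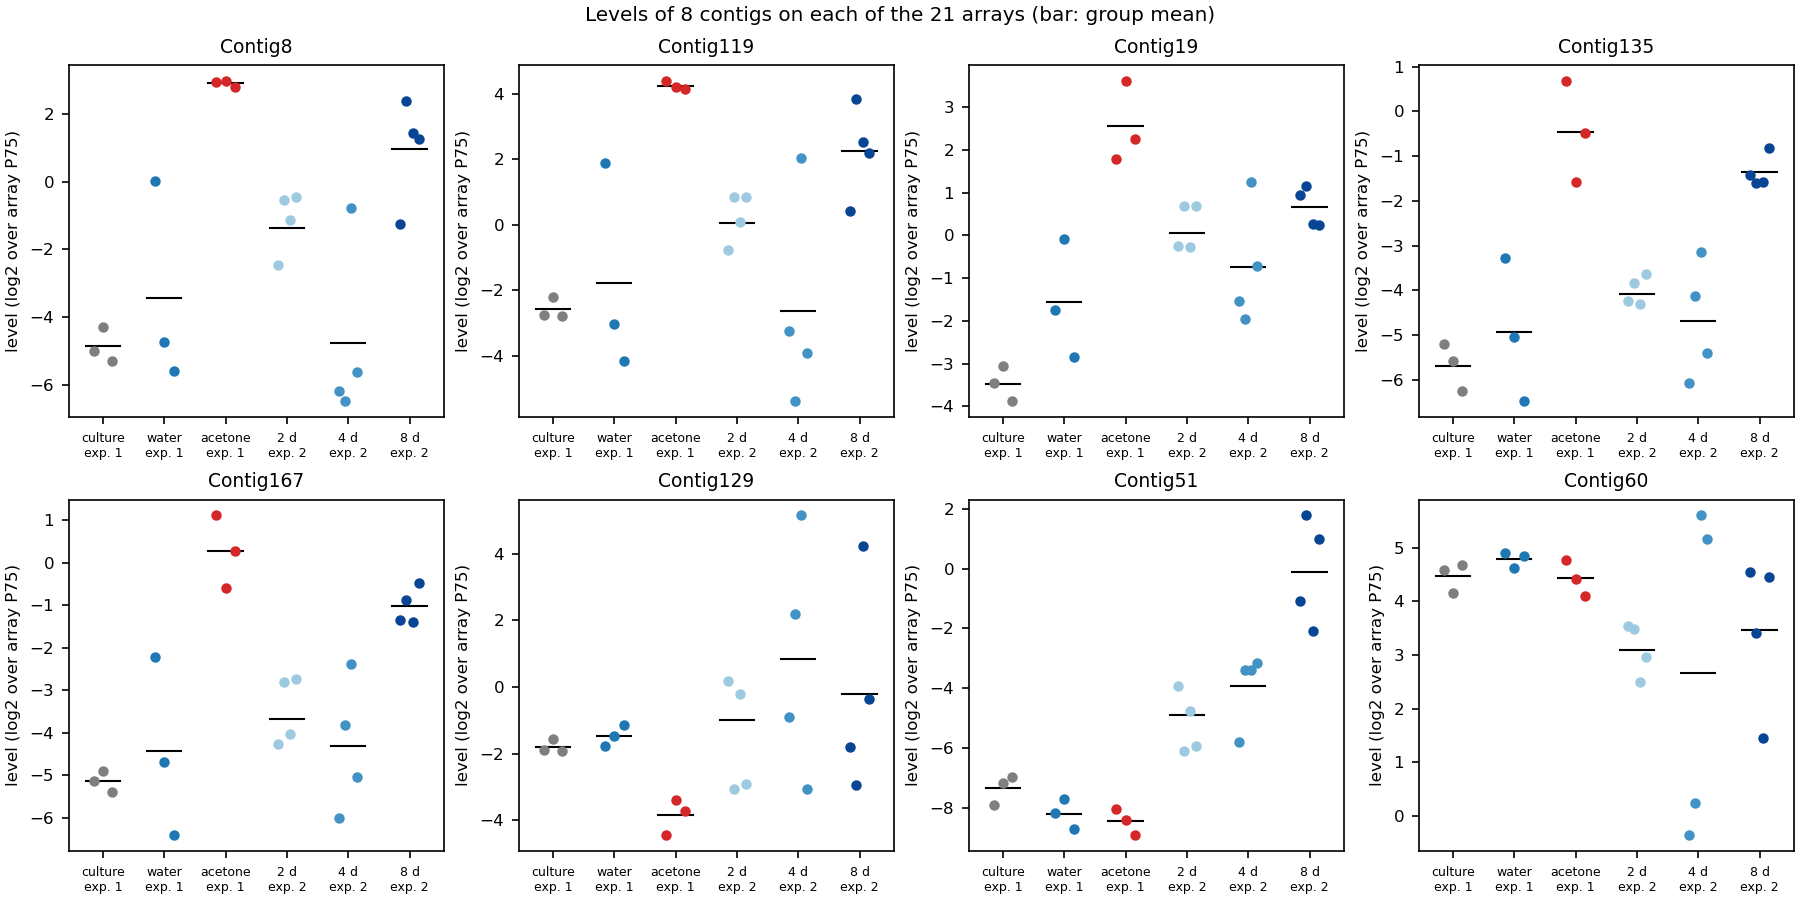
Level (log2 over the array's 75th percentile, y axis) of 8 contigs on each of the 21 arrays, by group (x axis); bars are group means, with the averaged 2-day pair counted once. Contig8 lies at 2.79 to 2.96 on the 3 acetone arrays and at −6.47 to −0.78 on the 4-day arrays; Contig51 is higher at 8 days than in any other group.

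From 2 to 4 days in control soil, 0 of 152 contigs passed (859 probes tested, 0.466% called), and 15 (9.87%) had an unadjusted p under 0.05, against 10.8% of all probes. Contig104 came closest: at −1.64, −0.43 and, for the averaged arrays, −1.65 and −1.70 at 2 days, it lay at −5.00, −4.50, −4.86 and −3.31 at 4 days. The groups did not overlap, and the difference of −3.17 ± 0.67 (SE) had an adjusted p of 0.0677. Contig132 had the smallest unadjusted p among contigs higher at 4 days, with a difference of 0.63 ± 0.30 (SE; adjusted p = 0.472). The median contig was lower at 4 days by −0.51, against −0.26 for all probes. Without the 3 dimmest arrays, which leaves only the averaged pair as 1 sample at 2 days, these were −0.06 and 0.05.

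From 2 to 8 days, 0 of 152 contigs passed (0.00% of 859 probes called), with 4 contigs (2.63%, against 4.89% of all probes) at an unadjusted p under 0.05 and a smallest adjusted p of 0.259. Contig51 showed the largest difference. It lay at −3.93, −6.08, −4.76 and −5.92 on the 2-day arrays and at −1.08, 1.78, −2.09 and 0.99 at 8 days. All 8-day samples were above all 2-day samples, by 4.79 ± 0.96 (SE) on average. Its adjusted p was 0.259, and without 8-day replicate 3 it was 0.0318; in the other 22 alternatives it stayed above the threshold. Contig103, the first among contigs lower at 8 days, differed by −0.84 ± 0.38 (SE; adjusted p = 0.984). The median contig was lower by −0.32 and the median probe by −0.16; both were 0.06 without the 3 dimmest arrays, again with 1 sample at 2 days.

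Between 4 and 8 days, 3 contigs rose and 0 fell of 152 tested (1.97%), against 1.05% of all 859 probes, 0.931% higher and 0.116% lower. Contig135 lay at −6.08, −4.12, −3.14 and −5.41 at 4 days and at −1.42, −1.60, −1.57 and −0.81 at 8 days. The groups did not overlap, and the difference was 3.33 ± 0.56 (SE; adjusted p = 0.0299). Contig167 rose from −6.01, −3.81, −2.37 and −5.05 to −1.34, −0.88, −1.38 and −0.49, by 3.29 ± 0.68 (SE; adjusted p = 0.0485). Contig8 rose from −6.17, −6.47, −0.78 and −5.62 to −1.26, 2.38, 1.44 and 1.24, by 5.71 ± 1.19 (SE; adjusted p = 0.0485). Its groups overlapped, because 4-day replicate 3 was higher than 8-day replicate 1. Contig115, the lowest p among contigs lower at 8 days, differed by −1.07 ± 0.41 (SE; adjusted p = 0.645).

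These 3 calls were near the threshold. None of the 3 passed when 2-day replicate 1 or 3, 4-day replicate 1, 2 or 4, or 8-day replicate 2 or 4 was left out, and all 3 passed without 4-day replicate 3. None passed without the 2 arrays of the newer scanner model, when Contig135 had an adjusted p of 0.166, nor without the 3 dimmest arrays, when it had 0.105, nor with scan day as a random block, when it had 0.130. Their differences stayed above 0 in all 23 alternatives, at 2.49 to 3.85 for Contig135, 2.56 to 3.94 for Contig167 and 4.15 to 7.04 for Contig8.

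All 3 contigs called between 4 and 8 days were among the 9 that rose with acetone (33.3% of the 9, 100% of the 3). The same overlap over all probes is not given here. Contig135 and Contig167 had closely alike levels over the samples (r = 0.988), so they are not separate patterns. The 2 comparisons share no samples. Of the 9, 8 were tested between 4 and 8 days, and all 8 lay above 0, from 0.08 to 5.71 with a median of 2.34. Of all contigs tested there, 69.1% lay above 0, with a median of 0.33. Across the 149 contigs tested in both, the differences correlated at r = 0.56 and rho = −0.18. Without the contigs that rose with acetone, r was −0.21 over 141 contigs, so the positive r rests on those 8. From 2 to 4 days those 8 all lay below 0 (median −0.61), where 19.1% of all contigs lay above 0. From 2 to 8 days 7 of the 8 lay above 0 (median 1.42), against 27.6% of all contigs, and 0 were called. Contigs are not independent replicates. Acetone replicate 3 and 8-day replicate 3 lay on 1 slide, and acetone replicates 2 and 3 were read on the same day as 8-day replicates 3 and 4. On 8-day replicates 1 and 2, read on another day, the median level of the 9 was 0.41 and 1.55, and on 8-day replicates 3 and 4 it was 0.27 and 0.24. Whether slide or scan day had a part in this overlap was not tested.

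**Figure D5:**
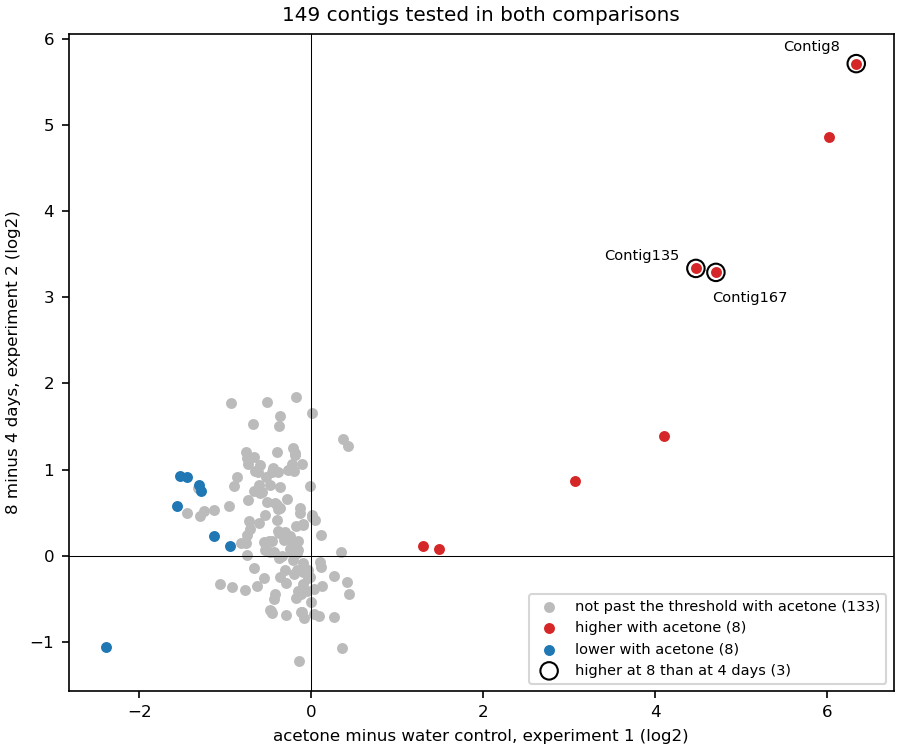
Each point is 1 of 149 contigs, with its log2 difference between acetone and water control in experiment 1 (x axis) and between 8 and 4 days in experiment 2 (y axis). Red and blue points passed the threshold as higher or lower with acetone, and circles mark the 3 contigs that passed as higher at 8 than at 4 days; the 8 red points all lie above 0 on both axes.

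The 8 contigs that fell with acetone showed no called difference in any other comparison. Between 4 and 8 days, 7 of the 8 lay above 0, with a median of 0.66. From culture to control soil, all 8 lay above 0, between 0.21 and 0.98, where 68.0% of all contigs did; that comparison shares the water controls with the acetone one.

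The 2-day water controls of experiment 1 and the 2-day worms of experiment 2 were held under the same nominal conditions. Of 155 contigs tested between them, 8 were higher and 1 lower in experiment 2 (5.81%), against 7.42% of all 889 probes. All probes split the other way, with 2.81% higher and 4.61% lower. Contig41 was above background on all 2-day arrays of experiment 2, at −5.35, −8.54, −6.09 and −8.01, and on none of the water controls. It was at least 2.31-fold higher (adjusted p = 0.0477). Contig51 lay at −8.17, −7.71 and −8.69 in the water controls, where it was above background on 1 of 3 arrays, against −6.08 to −3.93 in experiment 2. Its difference was 3.29 ± 0.56 (SE; adjusted p = 0.0202). The other higher contigs were Contig14, Contig17, Contig64, Contig103, Contig104 and Contig109, the last at least 4.19-fold higher. Contig41, Contig51 and Contig109 entered this test only through the experiment 2 arrays, where they were high. Their calls are therefore not separate support for a difference.

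Contig60 was the contig that was lower. It lay at 4.90, 4.62 and 4.84 in the water controls, all saturated, and at 3.54, 3.47, 2.49 and 2.96 on the 2-day arrays of experiment 2. It was at least 3.26-fold lower there (adjusted p = 0.0310). Later in experiment 2 it lay at −0.36, 0.25, 5.6 and 5.16 at 4 days and at 4.54, 3.41, 1.45 and 4.46 at 8 days. The low 4-day pair are the arrays read with the newer scanner model; the part of the scanner was not tested.

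Among contigs 81.9% lay higher in experiment 2, against 62.1% of all probes. The median contig differed by 0.67 and the median probe by 0.33, and the groups did not overlap for 41 higher and 6 lower contigs (30.3%). Over all probes 35.9% did not overlap, 19.7% higher and 16.2% lower. With the averaged 2-day pair alone standing for experiment 2, without the dim arrays, the median contig differed by 0.07. In that fit experiment 2 is 1 sample, assumed to vary like the 3 water controls, which alone give the spread, so its calls are not counted here. Without the averaged pair, 98 contigs were called, 92 of them higher. The share over all probes in that fit is not given here, so the count says nothing on contigs in particular. Without any 1 of the water controls, or without 2-day replicate 1 or 3, none was called. No scan day held both groups of any tested comparison, so there is no value within a day. When scan day was taken as a random block, 0 contigs passed between the experiments.

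In total, 26 of the 156 contigs tested in at least 1 comparison passed in 1 or more of the 6, and 3 passed in more than 1, Contig8, Contig135 and Contig167. The remaining 15 contigs were not tested, since in no group of a fit were all arrays above background for them.

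Several of the called contigs had near copies of their pattern among the other probes over the 20 samples. Contig8 was most like the probe Ealb_Met_P7_C1_SP6_2090602 (Pearson r = 0.997, Spearman rho = 0.991) and next most like Contig119 (r = 0.987, rho = 0.982). Without the 2 samples farthest from the median these were 0.997 and 0.989, and for deviations from the group means 0.993 and 0.976. Contig167 was most like Ealb_Pest_P6_H1_SP6_2092020 (r = 0.998, rho = 0.992) and Ealb_Pest_P7_C2_SP6_2092135 (r = 0.998, rho = 0.995). Contig135 was most like Contig167 (r = 0.988, rho = 0.977). Contig129 had no such partner: its nearest probe, Ealb_Met_P4_C10_SP6_2090109, reached r = 0.77. Contig51 and Contig60 had nearest probes at r = 0.86 and 0.88.

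The 3 pairs of contigs with the highest r, Contig73 with Contig89, Contig73 with Contig120 and Contig89 with Contig120, were all saturated on 19 arrays. Among the 74 contigs that were detected on all arrays and never saturated, the closest pairs were Contig13 with Contig53 (r = 0.997), Contig15 with Contig40 (r = 0.995) and Contig18 with Contig88 (r = 0.979). Of the 2701 pairs of these 74, 39 (1.44%) had an r over 0.9, against 0.377% of the pairs of all 473 such probes. For 23 of the 74 the nearest of these 473 probes had an r over 0.95.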

How the data were processed

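RNA of 21 samples was labelled with Cy3 (0.5 µg each) and hybridised to single-colour Agilent arrays. The deposited processed intensity of a spot was background-subtracted by Agilent Feature Extraction, version 10.5.1.1, or 10.7.3.1 for 4-day replicates 1 and 2, per the file headers. A deposited table holds the authors' log2 values, with no stated normalization; it correlated with the scanner values at 0.970 to 0.999 and served as an alternative within each experiment.

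Outlier-flagged and control spots were left out. Log2 signals were averaged over a probe's spots, minus the array's 75th percentile. Being above background meant that a share of 0.5 or more of a probe's usable spots was; probes entered a test if this held on each array of 1 or more groups. limma 3.58.1 in R 4.3.3 (lmFit, eBayes, two-sided) fitted all probes, with Benjamini-Hochberg adjustment over them and calls at adjusted p under 0.05. Each experiment's 3 groups were fitted together. A group below background or saturated on every array gives a fold as a bound. The contigs, the rule for naming them and the comparisons were chosen with earlier results of these data known. For each comparison that rule named at most 2 contigs higher and 2 lower with the largest difference, all if fewer than 5 passed, or the smallest p where none did; other called contigs were named after their values were seen. It also named contigs of largest and smallest spread or range, undetected or saturated ones, and the probes most like each. Alternatives were other scalings, background corrections, filters, blocks and left-out samples. Same-numbered replicates correlated between −0.491 and 0.591 in their deviations from group means, and samples were treated as unpaired. Between water control and acetone, same-numbered replicates gave 0.071, 0.200 and 0.239, and the others −0.223 to −0.0003. Whether same-numbered replicates belong together there was not tested. A fit with replicate number as a block was run as an alternative, and its contig counts are given below.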

Additional observations from a re-analysis of the deposited data

Results flagged for a closer look

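Of the 33 contigs named by rule, 7 had 1 sample far from the other 3 in a group of 4, at 4 or at 8 days, in 66 such groups. For independent samples this rule flags about 1 in 20. The contigs here were named from these same values and share arrays, so that rate is no yardstick for them. At 4 days, Contig8 lay at −0.78 in replicate 3 and between −6.47 and −5.62 in the others, Contig51 at −5.81 in replicate 1 against −3.40 to −3.14, and Contig112 at −1.55 in replicate 4 against −4.19 to −3.75. At 8 days, Contig123 lay at −4.78 in replicate 3 against −3.6 to −3.5. Contig138 and Contig152, above background on no array, lay at −6.45 and −6.41 there, against −10.4 to −9.75 and −10.3 to −9.78. That replicate had 1 of the 3 dimmest arrays. Contig24 lay at 4.33 in replicate 4 against 4.62 to 4.67.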

How the results depend on the processing

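The contig counts moved by over 1.5 times in most alternatives for acetone (14 of 19), 8 against 4 days (17 of 23) and between experiments (12 of 15). They moved in few for control soil against culture (4 of 19), 4 against 2 days (5 of 23) and 8 against 2 days (2 of 23). All counts in this paragraph are of contigs alone, without the share over all probes in each fit. They therefore say nothing on contigs in particular. For control soil against culture (0 called) there was 1 without the filter on dim probes, 2 when slide and 7 when scan day was a random block, and 0 to 1 with 1 replicate left out. For acetone (17), quantile normalization and median centring gave 10 each, normexp 11, no filter 11, the authors' values 3, the stricter filter 7, the replicate block 9, scan day 43, and leaving out replicates 1 to 21. For 4 against 2 days (0) the range without single replicates was 0 to 2, and 2 passed with 2-day arrays 2 and 4 taken as separate samples. For 8 against 2 days (0), 1 passed when only these groups were fitted, and 0 to 1 without single replicates. For 8 against 4 days (3), 0 passed under quantile normalization, median centring, the 2-group fit, the replicate block, scan day, the 3 dimmest arrays left out and the newer scanner left out; 1 passed with the authors' values and 1 with no filter, and 0 to 4 without single replicates. Between experiments (9), quantile normalization gave 14, normexp 4, the replicate block 0, scan day 0, separate arrays 15, the dimmest arrays left out 20 (1 sample left in experiment 2, spread from the water controls alone), and single replicates left out 0 to 98.

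The median SD of contigs in the water controls was 0.128 with normexp. Leaving out single replicates gave 0.232 to 0.318 in culture, 0.133 to 0.200 in water, 0.263 to 0.330 with acetone, 0.230 to 0.866 at 2 days, 0.659 to 0.882 at 4 days and 0.428 to 0.889 at 8 days. None of the 17 contig differences named per comparison changed sign under any alternative run. With slide as a block, the comparisons that involve experiment 2 could not be fitted. The same-number block is given only as counts, since samples were treated as unpaired.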
